A study of Mus musculus with 2 samples.

Results

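Of the 32228 genes counted in these libraries, 9 genes for receptors that bring leukocytes to the gut, hold them there or let them leave were followed across 10 leukocyte classes of the inflamed colon. They are Ccr7, Ccr9, Ccr10, Cxcr5, Cxcr6, Gpr15, Itgae, Itgb7 and S1pr1, chosen by name and by what they are known to do. The material was CD45+7AAD- cells sorted from the colonic lamina propria (LP), and each cell's transcripts were counted by unique molecular identifiers (UMIs) at their 3′ ends. There was 1 library of WT mice and 1 library of Ring1aKO mice, labelled as a knockout of Ring1a, a ubiquitin ligase subunit of Polycomb repressive complex 1. Both were of C57BL/6 background and labelled as 8 to 10 weeks old, both had been given dextran sulfate sodium (DSS), which injures the colonic epithelium and causes colitis, and each library was a pool of 5 mice.

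With 1 library a group, no difference between WT and Ring1aKO has a replicate check, and genotype cannot be told apart from library. Each level is given as UMIs of the gene in every 1000000 UMIs of the class (CPM) with an exact 95% Poisson interval, each share of cells with an exact 95% Clopper-Pearson interval, and each ratio as log2 of Ring1aKO over WT with the interval that its UMIs allow. These intervals cover counting error only and not the spread between mice. Those of levels and ratios also leave out the spread between cells. They treat each UMI as independent, although 1 cell can hold many UMIs of a gene.

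Leukocytes find the gut wall by reading local signals. Ccr9 answers Ccl25 from the small intestine, Ccr10 answers Ccl28 from the colon, Gpr15 guides T cells to the large intestine, and the integrin chain Itgb7 pairs with Itga4 to bind Madcam1 on gut vessels or with Itgae to bind E-cadherin on epithelial cells. Cxcr6, the receptor of Cxcl16, and Itgae are carried by cells that stay in the tissue, while S1pr1 draws cells out into lymph along sphingosine-1-phosphate and Ccr7 and Cxcr5 lead cells into draining lymph nodes and lymphoid follicles.

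Ccr9 and Cxcr6 are neighbours on mouse chromosome 9. In GENCODE vM21 on GRCm38, Ccr9 lies on the plus strand at chr9:123678439-123784330, and Cxcr6 starts 22144 bases further on at chr9:123806475-123811760, also on the plus strand. Itgb7, which was counted in more classes than any other member but Ccr7, lies on the minus strand at chr15:102215995-102231944. The 250 bases before the RefSeq start of these genes are shown because the neighbours Ccr9 and Cxcr6 had different class patterns and Itgb7 a broad one. The RefSeq start of Ccr9 lies inside the GENCODE span, far downstream of its first base, so the window printed is that of a transcript with a later start. The windows are RefSeq sequences on GRCm38.p6, read 5′ to 3′ on the strand of the gene, and capitals mark CACCC or its reverse complement GGGTG, the letters of a Klf-type core.
Ccr9, chr9:123766961-123767210: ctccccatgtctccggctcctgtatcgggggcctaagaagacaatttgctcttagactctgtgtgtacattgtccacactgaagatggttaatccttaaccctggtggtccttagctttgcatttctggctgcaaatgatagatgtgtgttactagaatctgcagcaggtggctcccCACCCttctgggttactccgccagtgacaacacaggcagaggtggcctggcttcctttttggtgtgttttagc
Cxcr6, chr9:123806227-123806476: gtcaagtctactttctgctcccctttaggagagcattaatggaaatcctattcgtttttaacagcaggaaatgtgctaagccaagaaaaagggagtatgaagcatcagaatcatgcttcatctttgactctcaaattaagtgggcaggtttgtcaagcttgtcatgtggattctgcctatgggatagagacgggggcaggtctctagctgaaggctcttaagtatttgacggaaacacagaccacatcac
Itgb7, chr15:102231936-102232185: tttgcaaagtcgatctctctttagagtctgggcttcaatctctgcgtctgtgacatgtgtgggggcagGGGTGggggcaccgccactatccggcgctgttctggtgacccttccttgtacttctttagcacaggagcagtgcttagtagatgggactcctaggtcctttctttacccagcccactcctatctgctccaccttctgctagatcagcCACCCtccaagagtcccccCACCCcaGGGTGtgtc
The letters CACCC stood on either strand 4 times in the Itgb7 window, 1 time in that of Ccr9 and not in that of Cxcr6. They occur in 52.0% of all 32851 promoters of the same length, so a match sets no gene apart, and a match is only a description of these letters. RefSeq promoters of 4 of the 9 members were in the table used here.

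After filtering, 6005 WT and 7918 Ring1aKO cells remained, with a median of 6354 and 5035 UMIs a cell and 61864835 and 69029466 UMIs in all. Marker genes other than the members placed 3724 WT (62.0%) and 6045 Ring1aKO cells (76.3%) in the 10 classes, which ranged from 1262 and 3747 B-like cells to 30 and 54 IgG plasma-like and 45 and 39 ILC3-like cells, and values of the last 2 classes rest on few cells. All 4 check markers that the gate had not used were highest in the named class or next to highest for 8 classes, 3 of 3 measured for gamma-delta-like cells, and 3 of 5 for ILC3-like cells, where Cd7 and Gpx1 were not. Ring1, the gene of Ring1a, had 828 UMIs in WT (13.4 CPM) and 816 in Ring1aKO (11.8 CPM), and a count of 3′ ends does not check whether the gene is disrupted. The libraries shared 11 barcodes. Between 0 and 10.2% of the cells of a B, T, ILC or dendritic class also carried markers of another lineage, such as heavy chain in a T cell, and results that turn on these cells are given again without them.

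Of the 90 pairs of a member and a class, 65 had at least 20 UMIs over both libraries, and 18 of these differed at least 2-fold, 10 higher and 8 lower in Ring1aKO. Over all genes with as many UMIs, 10.8% of pairs of gene and class passed 2-fold in either direction, 2.79% higher and 8% lower. The median log2 ratio of the 65 pairs was 0.16, whereas the median of all genes was between -0.43 and -0.01 in the 10 classes. Of the 18 pairs, 6 were of Ccr7, 4 of Ccr10, 2 each of Cxcr6, Gpr15 and S1pr1, and 1 each of Ccr9 and Itgb7. Without cells that carried markers of another lineage, 15 of 61 pairs passed, against a background of 10.5%, and 12 of them were among the 18.

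**Figure D1:**
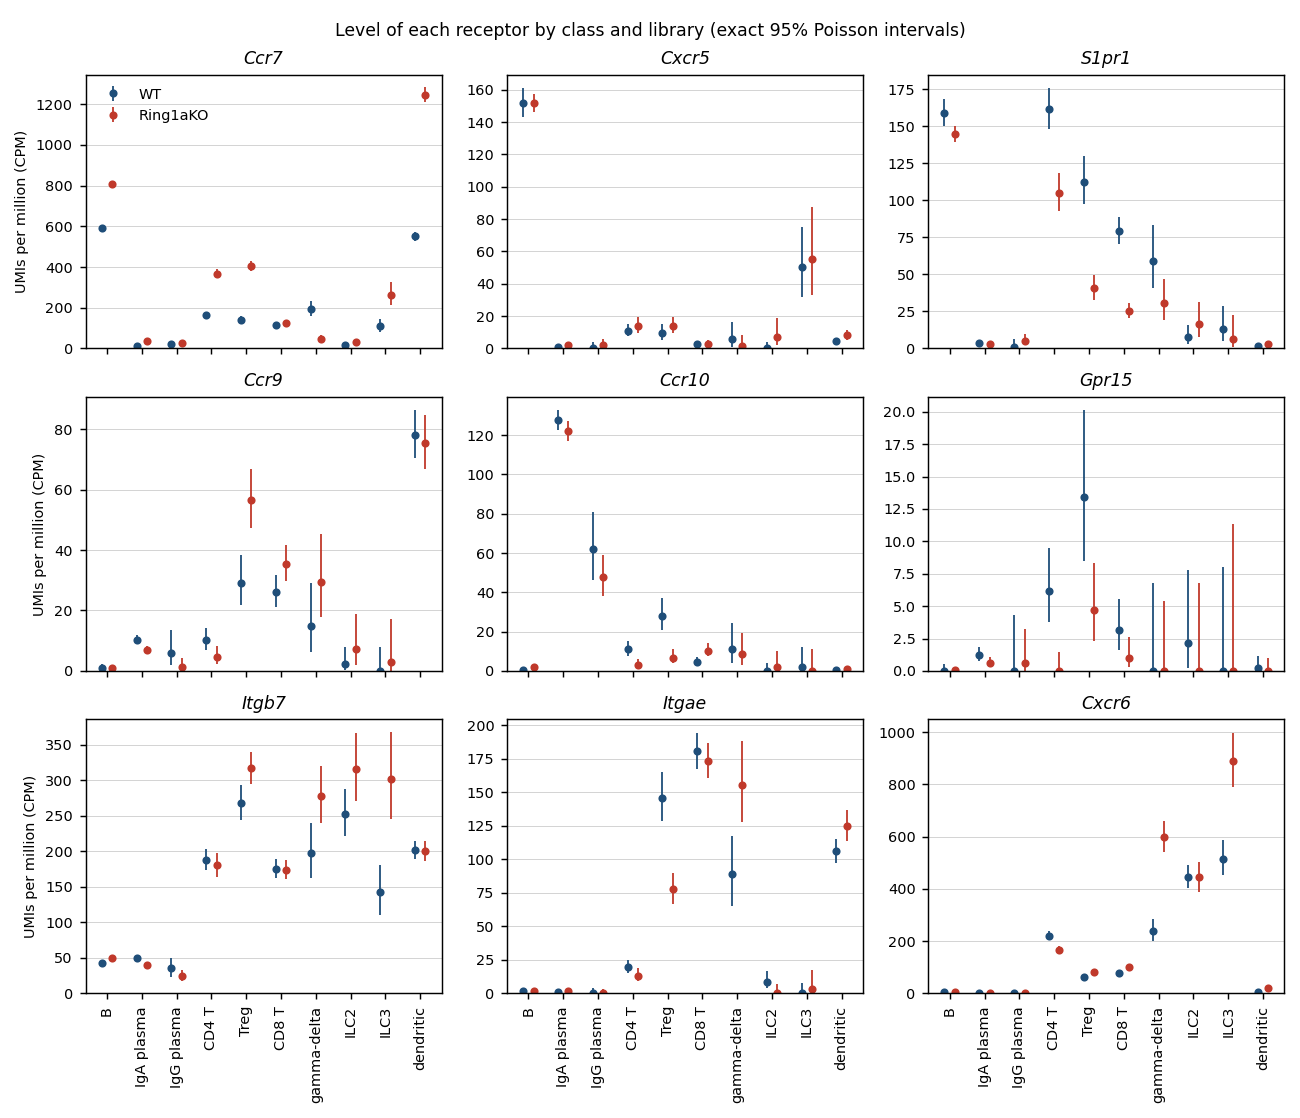
Levels of the 9 receptor genes in the 10 classes, with classes along the horizontal axis, CPM on the vertical axis, 1 point for WT and 1 for Ring1aKO, and bars for the exact 95% Poisson interval. Ccr7 and Cxcr5 stood highest in B-like or dendritic-like cells, Ccr10 in plasma-like cells, and Cxcr6 in ILC3-like cells, where it reached 515 CPM in WT and 889.8 CPM in Ring1aKO.

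Ordered by level, neighbouring classes often could not be separated by counting error. Of the 9 neighbouring pairs of classes a gene has, the intervals overlapped in 5 in WT and 4 in Ring1aKO for Ccr7, in 5 and 2 for Cxcr6, in 5 and 7 for Itgae, and in 7 and 5 for Itgb7. They overlapped in 6 and 7 pairs for S1pr1, 6 and 7 for Ccr10, 7 and 7 for Cxcr5, 8 and 8 for Ccr9 and 9 and 9 for Gpr15. Ccr7 and Cxcr6 thus had the most finely separated class levels, and the order of classes for Gpr15 is not set by these counts.

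Among the receptors that lead to lymphoid tissue, Ccr7, at chr11:99144196-99155077 on the minus strand, was highest in B-like cells in WT and in dendritic-like cells in Ring1aKO. In B-like cells it had 589.7 CPM (572 to 608) in WT and 805 CPM (793 to 818) in Ring1aKO, a log2 ratio of 0.45 (0.40 to 0.50). The counting intervals did not overlap, the ratio was below 2-fold, and 9.65% of 11738 genes passed 2-fold in this class. With every cell thinned to 1000 UMIs, 45.3% of WT (42.6 to 48.1) and 50.1% of Ring1aKO B-like cells (48.5 to 51.7) had a Ccr7 UMI, beside 3.97% and 8.13% of monocyte/macrophage-like cells. Median depth was 4250 and 4362 UMIs in B-like and 9532.5 and 6790 UMIs in monocyte/macrophage-like cells.

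B-like cells were then split by a UMI of Ighd, the heavy chain of naive B cells. This split and those that follow were chosen with values of these data known. With Ighd, held by 81.4% of WT and 86.2% of Ring1aKO B-like cells, Ccr7 stood at 683 and 824 CPM, a log2 ratio of 0.27 (0.22 to 0.32). Without it, Ccr7 stood at 361 CPM (336 to 388) in WT and 708 CPM (679 to 738) in Ring1aKO, a log2 ratio of 0.97 (0.85 to 1.09). The ratio was thus nearer 2-fold in the smaller group of B-like cells that had no Ighd UMI.

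Dendritic-like cells had 550.3 CPM of Ccr7 (529.6 to 572) in WT and 1246 CPM (1209.9 to 1282) in Ring1aKO, a log2 ratio of 1.18 (1.11 to 1.25), where 9.77% of genes passed 2-fold. With stricter gates it was 0.98. Most of the transcript lay in mature migratory cells, which were gated by Fscn1, Ccl22, Cacnb3, Socs2 and Il4i1 and are dendritic cells on their way to the lymph node. They were 50 of 311 WT dendritic-like cells (16.1%, 12.2 to 20.6) and 70 of 250 Ring1aKO cells (28.0%, 22.5 to 34.0), and carried 2987 and 4432 CPM of Ccr7, a log2 ratio of 0.57 (0.49 to 0.65). The higher Ccr7 level of the whole class therefore went with both a larger share of mature cells and a higher level within them.

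Other dendritic subsets held less Ccr7. In cells with Xcr1 or Clec9a, the markers of cross-presenting cDC1, which were 30.9% and 30.8% of the class, Ccr7 was 68.6 CPM (57.7 to 81.0) in WT and 115 CPM (99.1 to 134) in Ring1aKO. This gate also took in 23 WT and 12 Ring1aKO cells with a UMI of Siglech, a marker of plasmacytoid dendritic cells, and without them Ccr7 was 77.5 and 129 CPM. In the remaining cells it was 241 CPM (221 to 263) and 597 CPM (557 to 639.8). Each of the 3 subsets was higher in Ring1aKO beyond counting error.

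**Figure D2:**
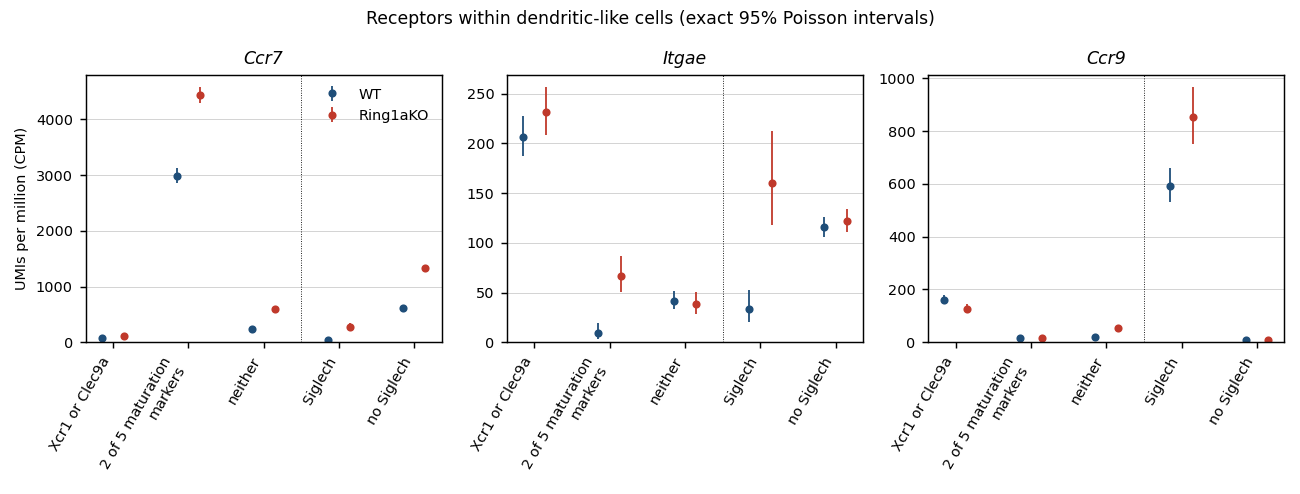
Ccr7, Itgae and Ccr9 within dendritic-like cells, as CPM on the vertical axis with exact 95% Poisson intervals, for 1 WT and 1 Ring1aKO library; left of the dotted line are cells with Xcr1 or Clec9a, cells with at least 2 of 5 maturation markers and the rest, and right of it all cells by a Siglech UMI. Ccr7 was highest with maturation markers (2987 and 4432 CPM), Itgae with Xcr1 or Clec9a (206 and 231 CPM), and Ccr9 with Siglech (593 and 854 CPM).

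T cells carry Ccr7 while they still pass through lymph nodes. Treg-like cells, gated by Foxp3, had 142 CPM of Ccr7 (124 to 161) in WT and 405 CPM (379 to 431) in Ring1aKO, a log2 ratio of 1.51 (1.31 to 1.72), with 9.93% of genes past 2-fold. For CD4 T-like cells the levels were 166 CPM (152 to 181) and 367 CPM (344 to 391), a log2 ratio of 1.14 (0.99 to 1.30), with 6.74% of genes past 2-fold. CD8 T-like cells had 113 CPM (103 to 124) and 125 CPM (114 to 136), a log2 ratio of 0.14 (-0.05 to 0.33) whose interval holds 0. Ccr7 was thus past 2-fold in the Treg-like and CD4 T-like classes and not in the CD8 class, and whether the classes differ was not tested. Monocyte/macrophage-like cells, a comparison class outside the 10, had 59.0 CPM (54.1 to 64.3) in WT and 235 CPM (218 to 254) in Ring1aKO. That is a log2 ratio of 1.995 (1.83 to 2.16), so a higher Ccr7 level was not particular to these T-like classes.

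Some T-like cells also carried dendritic markers, which themselves differed between libraries. The summed level of 10 dendritic gate genes was 16.3 CPM in WT and 93.1 CPM in Ring1aKO CD4 T-like cells, where Xcr1, Clec9a and Fscn1 were at 0 in WT and Clec9a was at 0 in Ring1aKO. In Treg-like cells it was 30.3 and 70.1 CPM, with Xcr1, Clec9a and Cd209a at 0 in WT and none at 0 in Ring1aKO. Without cells that carried markers of another lineage, the Ccr7 ratio was 1.06 (0.89 to 1.22) in CD4 T-like and 1.01 (0.80 to 1.24) in Treg-like cells, so both remained past 2-fold. Leaving out the cells with the highest 5% of UMI totals, or averaging CPM over cells, took the CD4 T-like ratio below 2-fold and not the Treg-like one.

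Free RNA in the droplets also held more Ccr7, at 174 CPM in WT and 393 CPM in Ring1aKO barcodes below 100 UMIs. It made up 2.21% and 2.74% of the UMIs of CD4 T-like cells and 2.13% and 2.30% of those of Treg-like cells without other markers, as set by Jchain. In IgA plasma-like cells, where free RNA made up 18.9% and 17.9% by Lyz2, Ccr7 was 11.6 CPM (10.2 to 13.3) and 34.6 CPM (32.0 to 37.4), a log2 ratio of 1.57 (1.35 to 1.80), where 14.4% of genes passed 2-fold. The free RNA would by itself give 628 and 1285 Ccr7 UMIs there, more than the 222 and 632 counted, and 101 of the 632 were in 1 cell. That share was thus too high for Ccr7, and 143 WT and 103 Ring1aKO cells of the class also carried macrophage markers. Taking free RNA off at that share was bound to leave no UMIs in either library, so it cannot show the part of free RNA in the ratio, which was not tested further.

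The rarer classes gave Ccr7 values from few cells. In gamma-delta-like cells Ccr7 was 192 CPM (157 to 233) in WT and 47.0 CPM (32.2 to 66.4) in Ring1aKO, a log2 ratio of -2.001 (-2.65 to -1.45), where 9.04% of genes passed 2-fold, and 48 of the 104 WT UMIs were in 1 cell. Without the highest cell of each library the ratio was -2.01, from 56 and 17 UMIs. Without cells that carried other markers it was 87.9 and 49.99 CPM, a log2 ratio of -0.81 (-1.54 to -0.09), which was under 2-fold. Over all gamma-delta-like cells, those with other markers included, the summed macrophage markers were 1333 CPM in WT and 144 CPM in Ring1aKO. C1qa and Ms4a7 were at 0 in both libraries, and C1qc, Csf1r and Adgre1 were at 0 in Ring1aKO only. ILC3-like cells, innate producers of interleukin 22, had 109 CPM (81.0 to 144) and 265 CPM (212 to 327), a log2 ratio of 1.27 (0.76 to 1.81). In that class 17.2% of genes passed 2-fold. The ratio was 1.22 without the highest cell of each library. It was below 2-fold as a mean over cells (0.75), with stricter gates (0.81) and without the highest 5% of UMI totals (0.88). ILC2-like and IgG plasma-like cells had 15.04 to 29.4 CPM in both libraries, with intervals of the ratio that hold 0.

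Cxcr5, at chr9:44511787-44561877 on the minus strand, is the receptor by which B cells and follicular helper T cells enter follicles towards Cxcl13. It was highest in B-like cells and differed there by less than counting error, with 152 CPM (143 to 161) in WT and 152 CPM (146 to 157) in Ring1aKO, a log2 ratio of -0.00 (-0.10 to 0.10). ILC3-like cells followed with 50.2 CPM (31.8 to 75.4) and 55.4 CPM (32.8 to 87.6). CD4 T-like cells had 11.1 and 14.1 CPM, Treg-like cells 9.33 and 13.6 CPM and dendritic-like cells 4.33 and 8.05 CPM, and in no class with 20 UMIs was Cxcr5 past 2-fold. The other 5 classes had at most 7.34 CPM. B-like cells of Ring1aKO thus had more Ccr7 than those of WT beside a like level of Cxcr5.

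S1pr1, at chr3:115710433-115715072 on the minus strand, is the exit receptor. It was lower in Ring1aKO in all 6 classes that had at least 20 UMIs, with an interval wholly below 0 in 5 of them. In CD8 T-like cells it was 79.0 CPM (70.3 to 88.5, 299 UMIs) in WT and 25.3 CPM (20.6 to 30.8, 100 UMIs) in Ring1aKO, a log2 ratio of -1.63 (-1.98 to -1.31), where 7.63% of genes passed 2-fold. In Treg-like cells it was 113 CPM (97.3 to 129.6) and 40.8 CPM (33.0 to 49.8), a log2 ratio of -1.46 (-1.83 to -1.10), which was -0.61 and below 2-fold after thinning to 1000 UMIs. In CD4 T-like cells it was 162 CPM (148 to 176) and 105 CPM (92.7 to 118), a log2 ratio of -0.62 (-0.84 to -0.41). These 3 T classes thus stood in the order CD4, Treg and CD8 in each library.

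Outside these T classes the differences of S1pr1 were smaller or less precise. B-like cells had 159 CPM (149.8 to 168) in WT and 145 CPM (139 to 150.2) in Ring1aKO, a log2 ratio of -0.14 (-0.23 to -0.03) in a class where the median of all genes was -0.20. Gamma-delta-like cells had 59.2 and 30.9 CPM from 32 and 21 UMIs, a log2 ratio of -0.92 (-1.81 to -0.10), and without cells of other markers the interval was -1.63 to 0.28. IgA plasma-like cells had 3.67 and 2.79 CPM, which differed by less than counting error. That log2 ratio was -0.39, in a class where the median of all genes was -0.43. Free RNA at the share set by Lyz2 would give 127 and 192 S1pr1 UMIs in IgA plasma-like cells, more than the 70 and 51 counted. These counts therefore do not set a level of the class. The other 4 classes had at most 16.5 CPM. Free RNA went the other way, with S1pr1 at 35.2 CPM in WT and 58.6 CPM in Ring1aKO.

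At 1000 UMIs a cell, 5.88% of WT (4.004 to 8.29) and 2.53% of Ring1aKO CD8 T-like cells (1.39 to 4.20) had an S1pr1 UMI. The same share was 9.87% (6.29 to 14.6) and 5.93% (3.28 to 9.75) in Treg-like cells. In CD4 T-like cells it was 16.9% (13.51 to 20.6) and 10.0% (7.14 to 13.52). The intervals of WT and Ring1aKO overlap in CD8 T-like, Treg-like and CD4 T-like cells. Monocyte/macrophage-like cells, which should hold little S1pr1, gave 0.314% and 1.97%, so the Ring1aKO share of CD8 T-like cells was close to background and its interval holds the background value. Median depth of CD8 T-like cells was 5897 and 5740 UMIs.

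CD8 T-like cells were split by a UMI of the CD8 beta chain Cd8b1, which conventional CD8 T cells carry. With it, S1pr1 was 92.0 CPM (80.7 to 104) in WT and 38.3 CPM (30.5 to 47.6) in Ring1aKO, a log2 ratio of -1.25 (-1.64 to -0.90). Without it, S1pr1 was 50.6 CPM (38.6 to 65.1) and 9.94 CPM (5.89 to 15.7), a log2 ratio of -2.29 (-3.20 to -1.57). S1pr1 was thus lower in Ring1aKO on both sides of the split. Ccr7 went the other way in cells with Cd8b1, at 137 CPM (123 to 152) and 186 CPM (168 to 205), a log2 ratio of 0.44 (0.23 to 0.65), and was 60.7 and 53.0 CPM in cells without, with an interval of the ratio from -0.65 to 0.26.

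**Figure D3:**
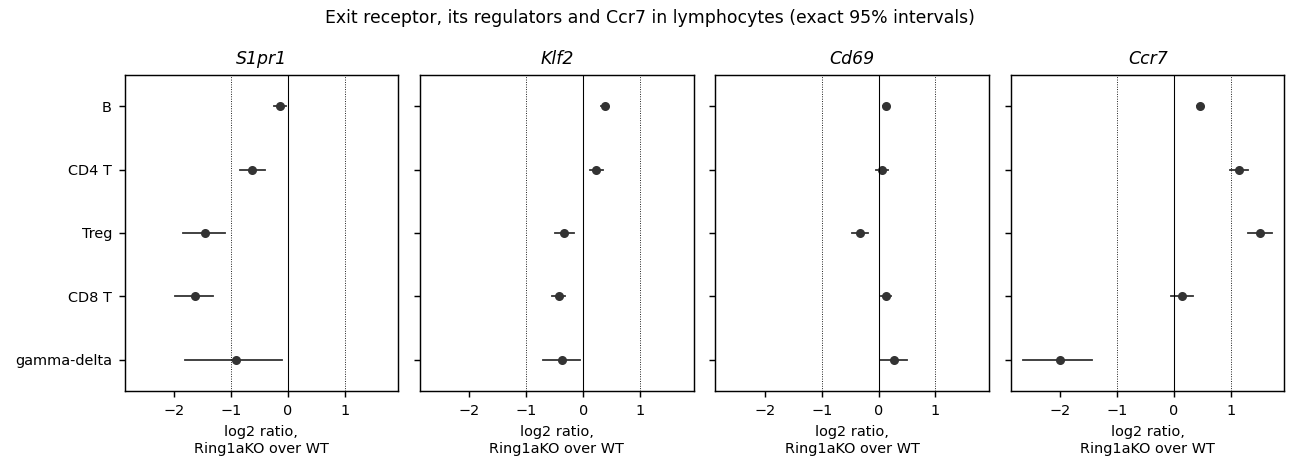
Log2 ratio of Ring1aKO over WT of S1pr1, Klf2, Cd69 and Ccr7 in B-like cells and the 4 T-like classes, with exact 95% intervals for counting error, a solid line at 0 and dotted lines at 2-fold. S1pr1 lies below 0 in each class, with -1.63 in CD8 T-like cells, while Klf2 and Cd69 stay within 2-fold. Ccr7 is more than 2-fold higher in Ring1aKO in CD4 T-like and Treg-like cells. In gamma-delta-like cells it is more than 2-fold lower (-2.001), but -0.81 without cells that carried markers of another lineage, which is not drawn here.

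Klf2, the transcription factor that maintains S1pr1 in T cells, was followed in every class it reached, and so was Cd69. Klf2 was lower in 5 classes and higher in 5. In T cells it stayed within 2-fold, with log2 ratios, given here without intervals, of 0.23 in CD4 T-like, -0.33 in Treg-like, -0.43 in CD8 T-like and -0.38 in gamma-delta-like cells. It was 0.38 in B-like, 0.43 in dendritic-like, -0.02 in IgA plasma-like and -0.84 in IgG plasma-like cells, and past 2-fold only in ILC2-like (1.04) and ILC3-like cells (1.14). Cd69, which pulls S1pr1 off the cell surface, passed 2-fold in none of the 10 classes, with log2 ratios from -0.66 in IgG plasma-like to 0.29 in ILC3-like cells.

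Ccr9, the receptor of Ccl25, was highest in dendritic-like cells, at 78.0 CPM (70.4 to 86.3) in WT and 75.4 CPM (66.9 to 84.8) in Ring1aKO, a log2 ratio of -0.05 (-0.28 to 0.18). It lay mostly in cells with a UMI of Siglech. These were 37 WT and 21 Ring1aKO cells with 593 CPM (531 to 659.6) and 854 CPM (751 to 966), against 10.3 and 8.74 CPM in all other dendritic-like cells. Cells with Xcr1 or Clec9a had 161 and 127 CPM, but 825 and 1019 CPM where they also had Siglech and 16.2 and 9.48 CPM where they did not. Ccr9 thus marked a small group in both libraries, with a like level over the whole class.

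In lymphocytes Ccr9 was lower. Treg-like cells had 29.2 CPM (21.6 to 38.5) in WT and 56.5 CPM (47.3 to 66.9) in Ring1aKO, a log2 ratio of 0.94 (0.47 to 1.45), with 29 of the 133 Ring1aKO UMIs in 1 cell. Without the cell highest in each library the ratio was 0.77. The interval of the Treg-like ratio lay above 0, and the ratio was below 2-fold.

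The other classes with Ccr9 differed in direction. CD8 T-like cells had 26.2 CPM (21.3 to 31.9) in WT and 35.4 CPM (29.8 to 41.8) in Ring1aKO, a log2 ratio of 0.43 (0.06 to 0.82). Gamma-delta-like cells had 14.8 and 29.4 CPM from 8 and 20 UMIs, with an interval of the ratio from -0.25 to 2.38. CD4 T-like cells had 10.2 and 4.70 CPM from 33 and 12 UMIs, a log2 ratio of -1.04 (-2.20 to -0.13), which fell short of 2-fold under 2 of 12 alternative settings. IgA plasma-like cells had 10.4 CPM (8.98 to 11.9) and 6.90 CPM (5.75 to 8.21), a log2 ratio of -0.58 (-0.92 to -0.26). Immunoglobulin took 55.7% of the UMIs of WT and 66.0% of those of Ring1aKO IgA plasma-like cells, and with immunoglobulin left out of the denominator the ratio was -0.20. Ccr9 overlaps Slc6a20a, Gm10052 and Lztfl1 on the other strand and Gm17200 and Gm17020 on its own, and the use of strand in counting is not given in the sources used here.

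Ccr10, at chr11:101172997-101175443 on the minus strand, is the receptor of IgA plasma cells for Ccl28. It was highest in IgA plasma-like cells, at 128 CPM (123 to 133, 2435 UMIs) in WT and 122 CPM (117 to 127, 2226 UMIs) in Ring1aKO, a log2 ratio of -0.07 (-0.15 to 0.02). With immunoglobulin left out of the denominator it was higher in Ring1aKO, at 0.32, while the median of all genes of the class moved from -0.43 to -0.05. IgG plasma-like cells had 61.9 CPM (46.4 to 81.0) and 47.8 CPM (38.0 to 59.2), with an interval of the ratio from -0.89 to 0.15. Ccr10 was thus shared by both plasma classes. In IgA plasma-like cells the interval of its ratio held 0 with immunoglobulin counted, and the ratio was above 0 only with immunoglobulin left out.

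All 4 pairs of Ccr10 past 2-fold were in other classes and rested on few UMIs. CD4 T-like cells had 36 and 8 UMIs (log2 ratio -1.70), Treg-like cells 48 and 16 UMIs (-1.99), CD8 T-like cells 17 and 41 UMIs (1.16) and B-like cells 5 and 43 UMIs (1.43), of which 13 were in 1 cell. In T-like cells with no markers of another lineage, Ccr10 had 0 and 0 UMIs in CD4, 1 and 1 in Treg and 2 and 1 in CD8. The Ccr10 of these T classes was therefore counted almost wholly in cells that also carried such markers, among them 8 to 11 cells a class and library with heavy chain, and gives no level of T cells.

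Gpr15, at chr16:58717433-58719070 on the minus strand, guides T cells to the large intestine and had the fewest UMIs of the members, mainly in T cells. Treg-like cells had 13.4 CPM (8.51 to 20.1, 23 UMIs) in WT and 4.67 CPM (2.33 to 8.36, 11 UMIs) in Ring1aKO, a log2 ratio of -1.46 (-2.71 to -0.43). Among CD4 T-like cells it had 20 UMIs in WT (6.17 CPM) and 0 UMIs in Ring1aKO, where the interval of the log2 ratio reached up to -1.96. CD8 T-like cells had 12 and 4 UMIs. IgA plasma-like cells had 23 and 11 UMIs, 1.21 and 0.602 CPM, beside 1.23 and 0.568 CPM in free RNA itself. At the share set by Lyz2, free RNA would give 4.44 and 1.86 of these UMIs. No other class had more than 2 UMIs in a library. All 3 classes with at least 20 UMIs were lower in Ring1aKO. In IgA plasma-like cells the log2 ratio was -0.94, with an interval from -2.19 to 0.09 that holds 0. The median of all genes of that class was -0.43. In CD4 T-like cells without other markers the counts were 16 and 0.

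**Figure D4:**
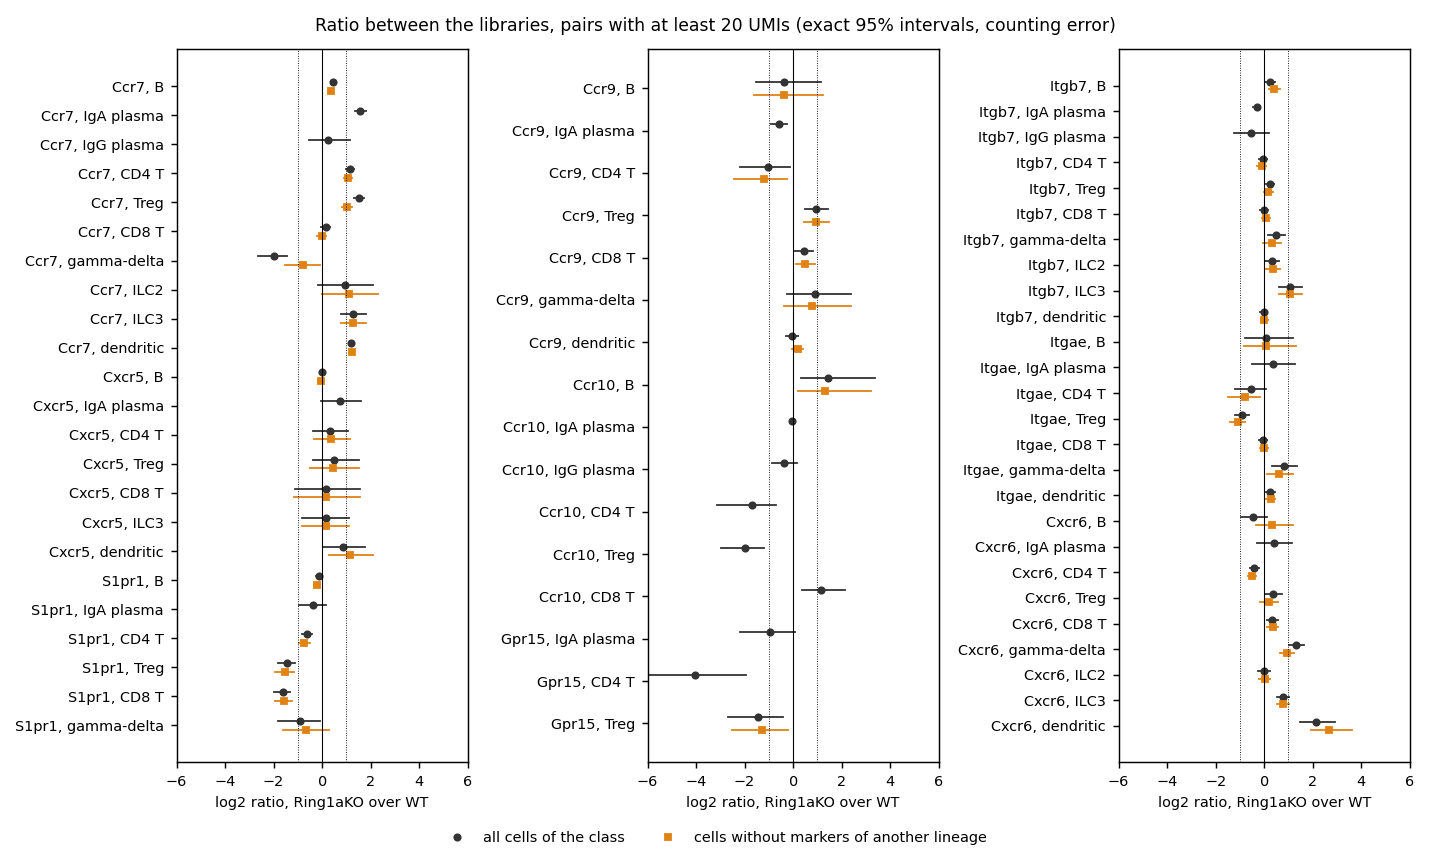
Log2 ratio of Ring1aKO over WT for the pairs of member and class with at least 20 UMIs, for all cells of a class (circles) and for cells without markers of another lineage (squares), with intervals for counting error as bars and dotted lines at 2-fold. For all cells, S1pr1 lies below 0 in 6 of 6 classes and Gpr15 in 3 of 3, whereas Ccr7 lies above 0 in 9 of 10.

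Itgb7, the beta chain shared by the gut homing and the epithelial integrin, was spread over all classes. It was highest in Treg-like cells, at 268 CPM (244 to 293) in WT and 316 CPM (294 to 340.0) in Ring1aKO, which is 0.24 (0.07 to 0.41) on the log2 scale. Next came ILC2-like cells with 253 and 316 CPM (0.32, 0.03 to 0.61). In CD4 T-like cells Itgb7 was 188 CPM (173 to 203) and 180.4 CPM (164 to 198), CD8 T-like cells 175 and 174 CPM, and dendritic-like cells 202 and 199.8 CPM, with ratios between -0.06 and -0.00 that differed by less than counting error. Itgb7 was thus at a like level in the main T classes and dendritic-like cells of both libraries.

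B-like cells had less Itgb7, 42.5 and 50.1 CPM (0.23, 0.05 to 0.43), and IgA plasma-like cells had 49.99 and 40.3 CPM (-0.31, -0.45 to -0.17). With immunoglobulin left out of the denominator, the median of all genes of the IgA plasma-like class moved from -0.43 to -0.05. The lower Itgb7 level of Ring1aKO in that class thus depends on whether immunoglobulin is counted. Only ILC3-like cells passed 2-fold, with 142 CPM (109.6 to 181) and 302 CPM (245 to 368), a log2 ratio of 1.08 (0.62 to 1.56). At 1000 UMIs a cell the direction turned, with 22.2% of WT (11.2 to 37.1) and 17.9% of Ring1aKO ILC3-like cells (7.54 to 33.5) having an Itgb7 UMI. With 45 and 39 cells this value is not firm. Gamma-delta-like cells had 198 and 278 CPM (0.48, 0.14 to 0.85), and IgG plasma-like cells 35.0 and 24.2 CPM, with an interval of the ratio from -1.25 to 0.19.

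The partner chains of Itgb7 differed in another way. Itga4, which with Itgb7 forms the receptor of Madcam1, was lower in Ring1aKO in all 10 classes and past 2-fold in 4, with log2 ratios from -1.28 to -0.39. It was 311 and 134 CPM in Treg-like cells (-1.21), 138 and 56.9 CPM in IgA plasma-like cells (-1.28), 223 and 125 CPM in CD4 T-like cells (-0.83), and 249 and 136 CPM in CD8 T-like cells. Itgb1, the other beta chain that binds Itga4, was also lower in all 10 classes and past 2-fold in 8, with log2 ratios from -1.63 to -0.67. Over all genes, 8% of pairs of gene and class were 2-fold lower, and the median of all genes was below 0 in each class, from -0.43 to -0.01. Itgb1 was 138 and 44.2 CPM in CD4 T-like, 136 and 48.1 CPM in CD8 T-like, 104 and 42.0 CPM in Treg-like, 54.8 and 24.3 CPM in B-like and 39.1 and 15.3 CPM in IgA plasma-like cells. Immunoglobulin took 55.7% of the IgA plasma-like UMIs in WT and 66.0% in Ring1aKO. Leaving it out of the denominator moved the median of all genes of that class from -0.43 to -0.05. That change moves every gene of the class by the same amount. Itga4 and Itgb1 would stay lower in Ring1aKO there, but by less than 2-fold. The counts of 4 and 8 classes past 2-fold thus include that class only with immunoglobulin counted. With immunoglobulin counted, Itgb7 was lower in 5 classes and higher in 5, with a median of 0.11 over them, beside medians of -0.91 for Itga4 and -1.19 for Itgb1. Without cells that carried markers of another lineage, Itgb7 was lower in 3 classes and higher in 7, with a median of 0.12. Itga4 and Itgb1 were still lower in all 10.

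Itgae, the alpha chain CD103, at chr11:73090583-73147446 on the plus strand, pairs only with Itgb7. It was highest in CD8 T-like cells, at 181 CPM (167 to 195) in WT and 174 CPM (161 to 187) in Ring1aKO, a log2 ratio of -0.06 (-0.21 to 0.10). In Treg-like cells it was 146 CPM (128 to 165) and 77.7 CPM (66.9 to 89.8), a log2 ratio of -0.91 (-1.19 to -0.63), and without cells of other markers it passed 2-fold at -1.09 (-1.40 to -0.80). At 1000 UMIs a cell, 14.3% of WT (10.0 to 19.6) and 8.47% of Ring1aKO Treg-like cells (5.25 to 12.8) had an Itgae UMI, with overlapping intervals. Itgae was thus lower in Ring1aKO Treg-like cells, where Itgb7 was not, and at a like level in CD8 T-like cells.

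Gamma-delta-like cells had more Itgae in Ring1aKO, at 88.7 CPM (65.4 to 118) and 156 CPM (128 to 188), a log2 ratio of 0.80 (0.31 to 1.34). Dendritic-like cells had 106 CPM (96.9 to 115) and 125 CPM (114 to 137), a log2 ratio of 0.24 (0.06 to 0.42), most of it in cells with Xcr1 or Clec9a, where it was 239.8 and 228 CPM without those that had Siglech. In CD4 T-like cells it was 19.4 and 13.3 CPM, with an interval of the ratio from -1.19 to 0.08, and the B-like, plasma-like and ILC classes had at most 8.597 CPM. In WT CD8 T-like cells thinned to 1000 UMIs, S1pr1 was found in 1 of 89 cells with an Itgae UMI (1.12%) and 29 of 421 without (6.89%), and in Ring1aKO in 3 of 82 (3.66%) and 11 of 472 (2.33%). This is a description of few cells, with overlapping intervals in each library.

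**Figure D5:**
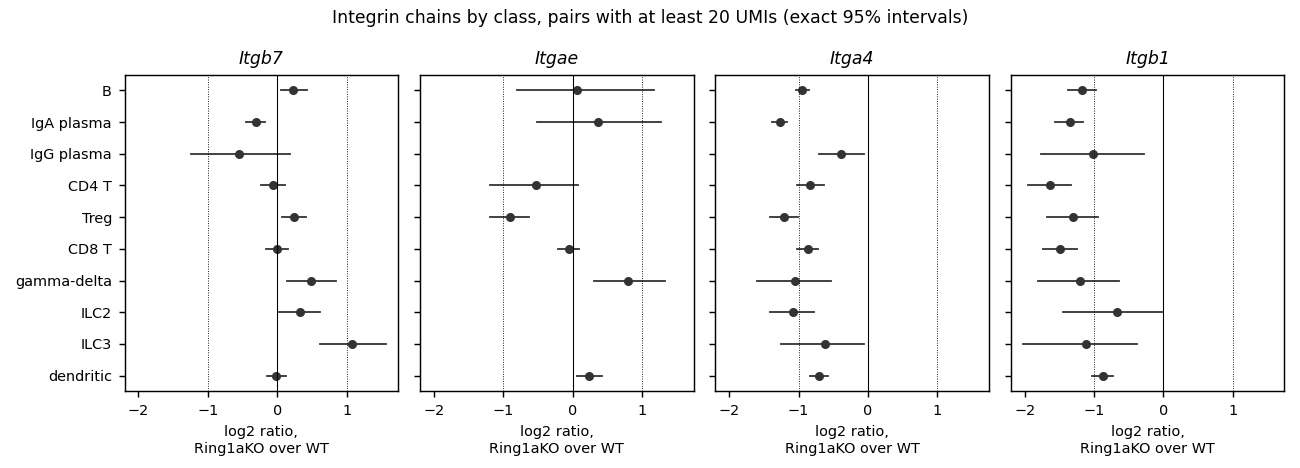
Log2 ratio of Ring1aKO over WT of the integrin chains Itgb7, Itgae, Itga4 and Itgb1 in the classes with at least 20 UMIs, with exact 95% intervals for counting error, a solid line at 0 and dotted lines at 2-fold. For all cells of a class, with immunoglobulin counted in the denominator, Itga4 and Itgb1 lie below 0 in all 10 classes. Itgb7 is below 0 in 5 and above 0 in 5.

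Cxcr6, the receptor of Cxcl16 that holds lymphocytes in tissue, had its highest levels in innate lymphocytes. ILC3-like cells had 515 CPM (452 to 586) in WT and 889.8 CPM (790.2 to 999) in Ring1aKO, which is 0.79 (0.53 to 1.04) on the log2 scale. The ILC2-like class had 445 CPM (403 to 489.9) and 444 CPM (389.8 to 504), a log2 ratio of -0.00 (-0.24 to 0.23). Gamma-delta-like cells had 238 CPM (199 to 283) and 599 CPM (543 to 661), a log2 ratio of 1.32 (1.04 to 1.63). Without cells of other markers it was 304 and 586 CPM, a log2 ratio of 0.94 (0.65 to 1.25), just under 2-fold.

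Cxcr6 of CD4 T-like cells was lower in Ring1aKO, at 220.4 CPM (205 to 237) and 166 CPM (150.5 to 182), a log2 ratio of -0.41 (-0.59 to -0.23). It was thus lower in this T class and higher in the next 2. CD8 T-like cells had 78.8 CPM (70.1 to 88.2) and 99.2 CPM (89.6 to 109.5), a log2 ratio of 0.33 (0.11 to 0.56), and Treg-like cells 61.8 and 80.3 CPM (0.37, 0.03 to 0.73). Dendritic-like cells held 23 and 80 UMIs, 4.75 and 21.5 CPM (2.13, 1.49 to 2.91), 77 of the 80 in cells that were neither mature migratory nor with Xcr1 or Clec9a, and the ratio was below 2-fold with stricter gates and after thinning. B-like cells had 6.37 and 4.67 CPM, and the plasma classes at most 2.19 CPM.

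The class patterns of the members were compared with those of all other genes over 20 values, 10 classes in each of 2 libraries, by Pearson's r of log2(CPM + 10). Among 11474 genes, Ccr10 was most like Txndc5 (0.96), Tram2 (0.94) and Prg2 (0.94), Cxcr6 like Furin (0.96), Lysmd2 (0.95) and Znrf1 (0.95), and Itgb7 like Fxyd5 (0.97), Id2 (0.97) and Niban1 (0.95). Ccr7 was most like Gdi2 (0.89), Fam174a (0.88) and Nrm (0.88), Cxcr5 like Pik3c2b (0.89), Sh3bp5 (0.88) and Mtss1 (0.87), and S1pr1 like Slc28a2 (0.91), BE692007 (0.90) and Ephx1 (0.90). Ccr9 was most like Rap2a (0.89), Havcr2 (0.89) and Npc2 (0.86), Gpr15 like Ccl20 (0.92), Nckap5 (0.88) and Myo3b (0.88), and Itgae like Ubash3b (0.88), Fam241a (0.87) and the member Ccr9 (0.86). The 20 values share their libraries and have no replicates, so these are descriptions. The likeness of Gpr15 to Ccl20 is not firm. Gpr15 had few UMIs, and much of the Ccl20 of WT CD4 T-like and Treg-like cells was in 1 cell of each class. The neighbours Ccr9 and Cxcr6 were not among each other's nearest genes.

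Beyond the members, 50 genes of the same pathways were counted, among them other trafficking receptors, integrins, their regulators and ligands. Of their 325 pairs with at least 20 UMIs, 18 were at least 2-fold higher and 37 at least 2-fold lower in Ring1aKO, beside 2.79% and 8% over all genes, and the median log2 ratio was -0.18. Ccr2, the receptor that brings monocytes and T cells to inflamed tissue, was lower in B-like cells (35.6 and 8.79 CPM, -2.01), IgA plasma-like cells (23.7 and 4.32 CPM, -2.44) and CD4 T-like cells (189 and 82.6 CPM, -1.19). Macrophage markers moved with it, with summed levels of 606 and 373 CPM in B-like and 3053 and 1945 CPM in IgA plasma-like cells and none of 8 at 0, and Lyz2 in free RNA was 1487 and 499.8 CPM. In cells without markers of another lineage the Ccr2 ratio was -0.25 (-0.93 to 0.56) in B-like and -1.24 in CD4 T-like cells, and no IgA plasma-like cells were left out by that rule. The part of macrophage RNA in the Ccr2 values was not tested further. Ccl20, the ligand of Ccr6, had 65 and 8 UMIs in CD4 T-like cells, 48 of them in 1 WT cell (-2.53), and 97 and 50 UMIs in Treg-like cells (-1.40), where 41 of the 97 were in 1 cell and the ratio without the highest cell of each library was -0.97.

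Ligand genes that were higher in Ring1aKO mostly came from single cells. Cxcl13 had 0 and 520 UMIs in Treg-like cells, 519 of them in 1 cell, 9 and 185 UMIs in IgA plasma-like cells, 174 of them in 1 cell, and 5 and 39 UMIs in B-like cells. Ccl21a had 1 and 224 UMIs in B-like cells, 209 of them in 1 cell, and Vcam1 2 and 44 UMIs in Treg-like cells, 40 of them in 1 cell. The counts say which barcodes of the CD45+ sort held these UMIs, not which cell type made them. Cxcl16, the ligand of Cxcr6, had 18 and 118 UMIs in Treg-like cells (2.19), but 11 and 8 UMIs in those without markers of another lineage. In IgA plasma-like cells the retinoic acid enzyme Aldh1a2 had 18 and 5 UMIs (-1.60) and the T-cell factor Tcf7 19 and 46 UMIs (1.30).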

How the data were processed

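The files hold raw counts: whole-number UMI counts per gene and barcode from 10x 3′ libraries, deposited by the authors for every barcode with no filter or normalization. The submitters' processing notes name Cell Ranger 6.0.2, Seurat and the build mm39, in no stated order, the study's methods name an earlier build and another Cell Ranger version, and which made these files was not settled. A strand setting is not given in the sources used here. The files give no coordinates, and those printed come from GENCODE and RefSeq tables on GRCm38, to which 32150 of 32228 gene IDs matched. The member genes, marker gates, splits and lists were chosen with earlier results of these data known.

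Barcodes with at least 1000 UMIs, at least 500 genes and under 5% mitochondrial UMIs were kept, which removed 387 WT and 501 Ring1aKO barcodes on the mitochondrial limit. The deposited counts summed to 74414511 and 81862096 UMIs. Cells were gated into classes by marker genes, none of them a member. Barcodes that met more than 1 gate (33 in WT, 28 in Ring1aKO) were left out, and no doublet caller was run. Counts were summed by class and library and given as CPM. Log2 ratios had 1 UMI added to each sum and were read where both libraries together held at least 20 UMIs. With 1 library a group no test was made. Exact Poisson, Clopper-Pearson and conditional ratio intervals were computed with Python 3.11.15, numpy 2.4.6, scipy 1.17.1 and pandas 2.3.3, and the code was tested on simulated data. Shares of cells with a UMI were taken after thinning each cell to 1000 UMIs, which left out no cell. Free RNA was read from barcodes under 100 UMIs.

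Named genes were the 9 members in all classes. Of 50 pathway genes, those past 2-fold in B, CD4 T, Treg, CD8 T and IgA plasma-like cells were named, at most 5 a class by size, and Klf2 and Cd69 in each class they reached. Some genes that this rule named, and splits that used them, are not reported here. For each member the 3 genes of highest r were named, Itga4 was added after its values were seen, and CACCC was searched on both strands. The alternatives changed the cell filter, denominator, depth, gates, free RNA, shared barcodes and highest totals, and 3 more were chosen after seeing the data: leaving out cells with markers of another lineage, leaving out the highest cell of each gene, and taking off free RNA as well as cells with other markers.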

Additional observations from a re-analysis of the deposited data

Results flagged for a closer look

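The log2 ratio of Ccr7 had opposite signs in classes of the same libraries. It was 1.57 in IgA plasma-like, 1.14 in CD4 T-like, 1.51 in Treg-like, 1.27 in ILC3-like and 1.18 in dendritic-like cells, but -2.001 in gamma-delta-like cells, and the difference between classes was not tested. In IgA plasma-like cells the free RNA share set by Lyz2 gave more Ccr7 UMIs than were counted, so taking it off left none and cannot set a level. The gamma-delta-like value was -0.81 without cells that carried markers of another lineage. Ccr10 was likewise higher in Ring1aKO in B-like (1.43) and CD8 T-like cells (1.16) and lower in CD4 T-like (-1.70) and Treg-like cells (-1.99), again untested and counted almost wholly in cells with markers of another lineage in the T-like classes.

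Barcodes under 100 UMIs, which the comparisons did not use, held more of some members in Ring1aKO than in WT. Ccr7 was 393 CPM against 174, Cxcr5 46.2 CPM against 18.4, and S1pr1 58.6 CPM against 35.2. Cxcr6 differed less, at 48.6 CPM against 41.8, with an interval of the log2 ratio from 0.02 to 0.42. Itgae was 33.8 CPM against 30.0, with an interval that holds 0, and Ccr9, Ccr10, Gpr15 and Itgb7 were lower in Ring1aKO. These are values of 1 library each, and their part in the levels of the classes was not tested beyond taking free RNA off.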

How the results depend on the processing

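No paired analysis was possible because WT and Ring1aKO had 1 library each. Of 108 recomputed log2 ratios of 9 leading pairs of member and class, 93 lay within the counting interval of the reported value. Ccr7 in B-like cells (0.45) was 0.33 as a mean over cells, 0.33 after thinning to 1000 UMIs, 0.36 without the highest 5% of UMI totals, 0.37 without cells of other markers and 0.35 with free RNA also taken off. S1pr1 in B-like cells (-0.14) was -0.28 as a mean over cells, -0.40 after thinning, -0.24 without the highest 5% and -0.25 without cells of other markers and free RNA. Thinning gave -0.17 for Cxcr5 in B-like, 0.25 for Ccr10 in IgA plasma-like, -0.25 for Itgae in CD8 T-like and 0.62 for Cxcr6 in CD8 T-like cells. Leaving immunoglobulin out of the denominator gave -0.20 for Ccr9 and 0.32 for Ccr10 in IgA plasma-like cells.

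Direction turned for Ccr10 outside plasma cells: B-like -0.25 thinned and -0.50 without the highest 5%; CD4 T-like 0.34 with free RNA off, 2.65 without the highest 5%, 0.21 without cells of other markers and 0.21 with both; Treg-like 1.11 without the highest 5%; and CD8 T-like -0.062 with free RNA off, -0.61 without the highest 5%, -0.67 without cells of other markers and -0.081 with both. Itgb7 in ILC3-like cells was -0.25 after thinning. The causes were not tested.

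The 18 pairs past 2-fold numbered 6 after thinning, which left 33 pairs, and 13 to 21 elsewhere. Except for cells without markers of another lineage, no share of all genes under the same setting is given beside these counts. They therefore cannot be read against a background. By the ratio alone, without the limit of 20 UMIs, only 3 pairs passed 2-fold under every alternative that gave a value. They were Ccr7 in Treg-like and S1pr1 in CD8 T-like cells, with 12 alternatives each, and Gpr15 in CD4 T-like cells, with 11. The lowest log2 ratio of Ccr7 in Treg-like cells among them was 1.01, just past the limit. Gpr15 in CD4 T-like cells stood at the limit for reading a ratio, with 20 and 0 UMIs. Without the highest cell of each library it had 17 and 0 UMIs, below that limit. Its ratios rest on a count of 0 in Ring1aKO and on the added UMI, so it is less firm than the other pairs named. Free RNA taken off at the share set by Jchain reached 38.3% of UMIs in CD8 T-like cells, some of which carried heavy chain, so this alternative is rough for T cells. It is also rough for IgA plasma-like cells, where the share set by Lyz2 gave more Ccr7 UMIs than were counted. Depth limits Gpr15, Ccr10 outside plasma cells and the ILC3-like and IgG plasma-like classes.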
